A study of Danio rerio with 5 samples.

Results

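Heat shock proteins, DnaJ proteins and chaperonin subunits were followed in the caudal fin of zebrafish, which regrows after it is cut off. The genes were taken by name from the deposited tables: names starting with hsp and a digit or with hspa, hspb, hspd, hspe or hsph and a digit, with dnaja, dnajb or dnajc and a digit, or with cct and a digit. This gave 92 of 31540 genes: 13 of the Hsp70 and Hsp110 class, 5 Hsp70, Hsp60 and Hsp10 genes of the endoplasmic reticulum and mitochondria, 4 Hsp90 genes, 10 small heat shock genes, 5, 16 and 32 DnaJ genes of types A, B and C, and 7 chaperonin subunits. The series sets regenerating fins at 1 and 3 days after amputation against each other, by RNA sequencing of whole tissue. Its labels name a group 24h (3 libraries) and a group Control (2 libraries), both from regenerated caudal fin tissue. They give no genotype, strain, age or pooling of animals, and they do not say what sets the Control samples apart, so the comparison is only 24h against Control.

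Chaperones bind proteins that are unfolded or only partly folded and keep them from clumping. Hsp70 proteins hold short stretches of such chains in a cycle driven by ATP; DnaJ proteins (Hsp40) bring clients to Hsp70 and start that cycle, and Hsp110 proteins release the nucleotide that ends it. Hsp90 acts later, on kinases, hormone receptors and other clients that are nearly folded. Small heat shock proteins hold clients without ATP, and the Cct chaperonin is a barrel of different subunits in which actin and tubulin fold. In zebrafish, hsp70.1 and its neighbours on chromosome 3 are induced by heat through the heat shock factor Hsf1, hspa8 is the constant cytosolic form, and hspa5 (BiP) and hsp90b1 serve the endoplasmic reticulum.

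The 24h libraries held 14958600 to 22341452 reads in genes and the Control libraries 15448344 to 18887167, and the chaperone genes took 1.63% to 1.75% of them in 24h and 1.79% to 1.80% in Control. Levels are given as CPM (counts per 1000000 reads, scaled with edgeR's TMM factors), changes as log2 fold changes of 24h over Control with their standard error (SE), and p-values are adjusted over all genes tested, with 0.05 as the threshold. Counts in every pair of libraries differed by more than sampling noise, with a chi-square per degree of freedom of 15.2 or more. Whether samples were separate animals is not said in the labels, so the p-values rest on a spread between libraries that may be technical. In whole tissue, fewer cells of a type and less RNA per cell cannot be told apart.

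The chaperone genes did not move as a block. Of the 92, 82 had enough reads to be tested; 5 were higher in 24h (hsp70.1, hspd1, hspa4b, dnajb12a and dnajc2) and 7 lower (hspa4l, hspa12a, hspa12b, hspb7, dnajb4, dnajc3b and a gene the tables call DNAJB5 (1 to many), distinct from dnajb5). That is 6.10% of the tested members higher, against 9.43% of the 19034 genes tested, and 8.54% lower, against 14.8% of all genes. Their median log2 fold change was 0.02, against 0.00 for all genes, and 54 of the 82 lay within 0.5 of zero on the log2 scale (65.9%, against 57.6% of all genes). Groups did not overlap in 29 members with 24h above Control (35.4%, against 27.7% of all genes) and in 19 with 24h below (23.2%, against 29.1%). At an unadjusted p under 0.05, 15 members were higher and 13 lower, where 17.1% of all genes were higher and 21% lower. DESeq2 called 10 members higher and 9 lower (11.3% and 15.5% of all genes), and limma-voom called 5 higher and 8 lower (9.14% and 15.5% of all genes). The 10 members with too few reads had at most 14 in any library; they were dnajb13, dnajb9b_2, dnajc22, dnajc5b, hsp90aa1.1, hspb2, hspb3, hspb9, hspb11 and hspb15, and hspb15 had 0 reads in all libraries.

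The called members were also counted by level. Of the members, 50 had a mean deposited TPM (transcripts per 1000000, scaled for exon length) of 10 or more. Among these 50, 4 were higher (8%) and 1 was lower (2%). Among the 32 tested members under 10 TPM, 1 was higher (3.1%) and 6 were lower (18.75%). All genes leaned the same way, with 15.7% higher and 11.4% lower at 10 TPM or more and 4.41% higher and 17.6% lower under 10 TPM. Separation of the groups also went with level. At 10 TPM or more, 46% of members lay above Control without overlap and 16% below, against 40.6% and 21.15% of all genes. Under 10 TPM these shares were 18.75% and 34.4% of the tested members, against 17.4% and 35.5% of all genes. On this separation the members lay closer to all genes within each level than without the split. The share called did not follow this at 10 TPM or more, where 10% of members and 27.1% of all genes were called. Without the split these shares were 14.6% and 24.3%.

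**Figure D1:**
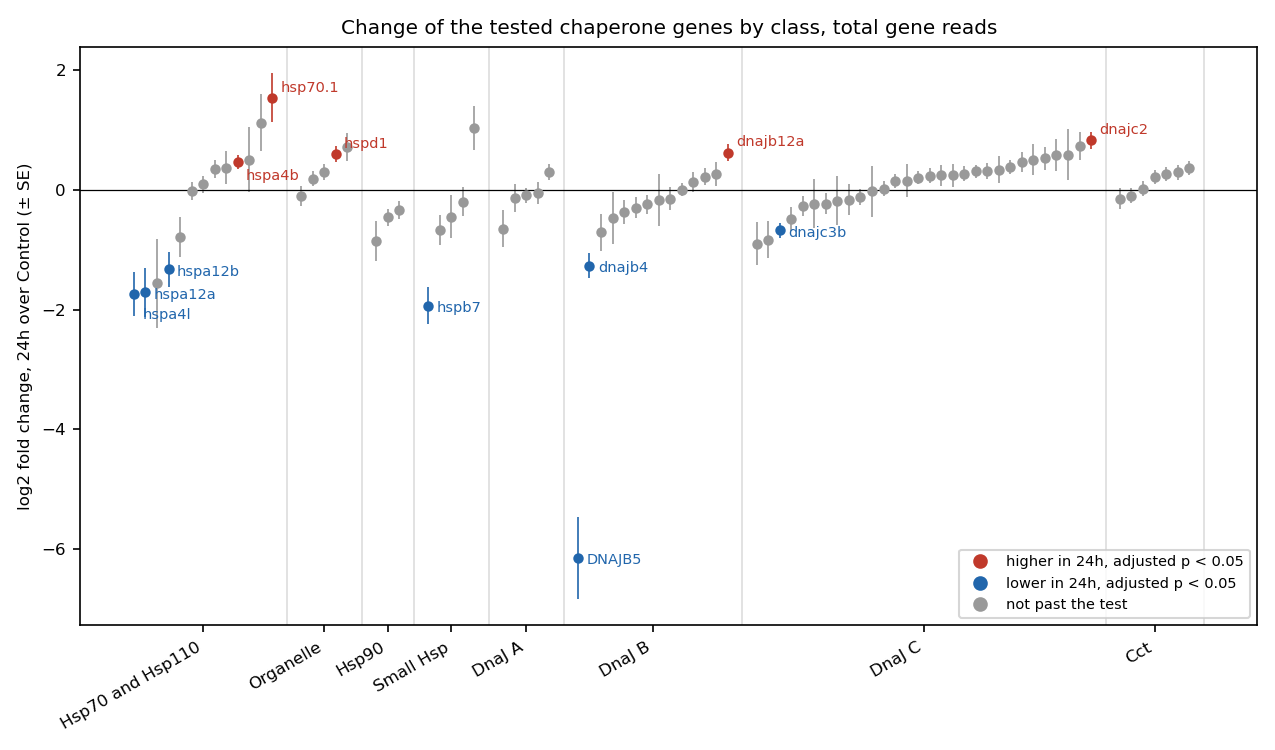
Log2 fold change of 24h over Control in total gene reads (points, with bars of ± SE) for the 82 tested chaperone genes, grouped by class and sorted within each. Red points (5 genes) passed the test as higher in 24h, blue points (7 genes) as lower, and grey points did not pass; the point at -6.15 is DNAJB5 (1 to many).

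Leaving out a Control library ended most calls. Without Control replicate 1, 2 of the 12 called members stayed past the threshold (DNAJB5 (1 to many) and hspb7), and without Control replicate 2, 3 did (DNAJB5 (1 to many), dnajb4 and dnajc3b). Over all genes the calls were fewer as well, 418 higher and 1372 lower without Control replicate 1 and 621 higher and 1587 lower without Control replicate 2, against 1794 higher and 2824 lower with all libraries. Each of these fits has a lone Control sample, which is assumed to vary like the 24h libraries. No called member changed direction in any of them. Without a 24h library, 10, 10 and 11 of the 12 stayed called.

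The heat-inducible Hsp70 genes were near the bottom of the scale. hsp70.1 had 2.15, 1.99 and 2.73 CPM in the 24h libraries and 0.53 and 1.05 CPM in the Control libraries. The groups did not overlap, and the log2 fold change was 1.54 ± 0.41 (SE, adjusted p = 0.033). This call was lost in each fit that left out a library, with log2 fold changes of 1.1 (adjusted p = 0.24, without Control replicate 1) to 2.11 (adjusted p = 0.053, without Control replicate 2).

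The hsp70.1 locus (GRCz10 chr3:25981914-25984688, minus strand) is followed after 4043 bases by hsp70.2 and after another 1382 bases by hsp70.3, and of the reads given to hsp70.1 only 15.1% were unique. The rest could also be placed elsewhere, so the split between the copies is uncertain. hsp70.2 had 12.5, 8.98 and 8.63 CPM in 24h and 2.16 and 7.19 CPM in Control (log2 fold change 1.12 ± 0.48 (SE), adjusted p = 0.13). hsp70.3 had 6.95, 5.00 and 5.78 CPM in 24h and 1.58 and 6.86 CPM in Control (0.50 ± 0.54, adjusted p = 0.53). Control replicate 1 was the lowest library for each copy, and Control replicate 2 lay close to or inside the 24h range for hsp70.2 and hsp70.3. Without Control replicate 2 both were called higher (hsp70.2 at 2.23, adjusted p = 0.013, and hsp70.3 at 1.91, adjusted p = 0.026). hsp70.2 and hsp70.3 are named here after their values were seen.

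With the reads of the 3 copies summed, the 24h libraries had 21.6, 16.0 and 17.1 CPM and the Control libraries 4.28 and 15.1 CPM. The sum did not pass the test (log2 fold change 0.93 ± 0.48 (SE), adjusted p = 0.21). It depended on which Control library was used: 2.10 (adjusted p = 0.0064) without Control replicate 2, against 0.27 without Control replicate 1. All 3 copies lie inside the model of atp2a1, a calcium pump of skeletal muscle, whose own reads totalled 792 in 24h and 544 in Control (log2 fold change -0.28, adjusted p = 0.40). The related heat-inducible gene hsp70l, on chromosome 8, had 8.80, 5.29 and 7.60 CPM in 24h and 5.01 and 6.13 CPM in Control, and the groups overlapped (0.38, adjusted p = 0.35).

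The constant cytosolic Hsp70 was the most abundant chaperone. hspa8 had 6177, 5596 and 5128 CPM in 24h and 5707 and 5687 CPM in Control, with a log2 fold change of -0.02 ± 0.15 (SE, adjusted p = 0.95). The Control values lay inside the 24h range. By mean deposited TPM it was the 21st gene of the whole table, with 4839 TPM. A further copy, which the tables name HSPA8 (1 to many), was far lower and scattered: 20.7, 8.89 and 57.0 CPM in 24h and 89.0 and 80.2 CPM in Control. It did not pass the test (-1.56 ± 0.74, adjusted p = 0.19), and without 24h replicate 3 the change was -2.52 (adjusted p = 0.0051).

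The Hsp110 genes and their relatives split. hspa4b, one of a pair of hspa4 copies that exchange nucleotide on Hsp70, had 170, 190 and 174 CPM in 24h and 126 and 131 CPM in Control. All 24h libraries were above both Control libraries, and the log2 fold change was 0.47 ± 0.12 (SE, adjusted p = 0.028; 0.20 without Control replicate 1, 0.14 without Control replicate 2, 0.084 without 24h replicate 2, 0.061 on log2(TPM + 1) and 0.065 on log2(TPM + 0.1)). Its copy hspa4a had 242, 266 and 285 CPM in 24h and 268 and 227 CPM in Control, without a separation of the groups (0.09 ± 0.14, adjusted p = 0.66). The ratio of hspa4b to hspa4a in deposited TPM was 77.9%, 79.7% and 67.8% in 24h and 52.3% and 63.8% in Control. Since hspa4b was the called gene of this pair, a gap between the groups follows in part from that choice.

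hspa4l, the least abundant gene of this branch, went the other way. It had 1.71, 0.80 and 1.75 CPM in 24h and 4.75 and 4.68 CPM in Control, a log2 fold change of -1.74 ± 0.37 (SE, adjusted p = 0.014; 0.091 without Control replicate 1 and 0.070 without Control replicate 2). All 24h values were under the lowest Control value. hsph1, which encodes the stress-induced Hsp110, had 4.11, 7.32 and 9.22 CPM in 24h and 13.7 and 9.82 CPM in Control; it did not pass the test (-0.78, adjusted p = 0.14). hspa4a, hspa4b, hsph1 and the second HSPA8 copy were named after their values were seen.

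The distant Hsp70 relatives hspa12a and hspa12b were both lower. hspa12a had 1.96, 0.85 and 2.47 CPM in 24h and 5.96 and 5.34 CPM in Control (log2 fold change -1.71 ± 0.41 (SE), adjusted p = 0.023). hspa12b, which in mammals is known from endothelial cells, had 4.65, 2.50 and 3.31 CPM in 24h and 9.40 and 8.04 CPM in Control (-1.33 ± 0.29, adjusted p = 0.016). No 24h value reached a Control value for either gene. Both calls were lost without Control replicate 1 (adjusted p = 0.14 for hspa12a and 0.12 for hspa12b) and without Control replicate 2 (0.084 and 0.059), and that of hspa12a also without 24h replicate 1 (0.052) and on log2(TPM + 0.1) (0.081).

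Endothelial markers were lower as well, as were markers of some other cell types. Of 6 endothelial markers, 5 were lower in 24h and 0 higher, where 14.8% of all genes were lower and 9.43% higher. None was at 0 reads, and their summed level was 20.1 to 23.1 CPM in 24h and 129 to 135 CPM in Control. Fibroblast markers had 7 of 9 tested lower and 0 higher, and red cell markers 2 of 3 and 0. Smooth muscle and mural markers had 3 lower and 1 higher of 6. Basal epidermis markers had 2 higher and 2 lower of 6, and skeletal muscle markers 2 higher and 1 lower of 9. The part of endothelial cells in the hspa12b value was not tested.

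In the mitochondrion, the Hsp60 gene passed as higher, and its partner lay above Control without overlap but did not pass. hspd1, which encodes the mitochondrial chaperonin Hsp60, had 252, 261 and 273 CPM in 24h and 161 and 185 CPM in Control, and no values overlapped. Its log2 fold change was 0.60 ± 0.13 (SE, adjusted p = 0.014; 0.17 without Control replicate 1 and 0.061 without Control replicate 2). hspe1 encodes the Hsp10 lid of that chaperonin and starts 233 bases away on the opposite strand (hspd1 at GRCz10 chr9:32475859-32490037, hspe1 at chr9:32490271-32494261). It had 114, 108 and 122 CPM in 24h and 82.7 and 103 CPM in Control, with a log2 fold change of 0.30 ± 0.14 (adjusted p = 0.16). Its groups did not overlap either, and whether the changes of hspd1 and hspe1 differ was not tested.

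The ratio of hspe1 to hspd1 in deposited TPM was lower in each 24h library (71.6%, 65.1% and 70.9%) than in either Control library (81.6% and 88.9%). This ratio restates the changes of the 2 genes, of which hspd1 was the called one, and is no separate test. The mitochondrial Hsp70, hspa9, named after its values were seen, had 236, 278 and 276 CPM in 24h and 231 and 230 CPM in Control. It lay above Control without overlap and did not pass (0.19, adjusted p = 0.32). Of the 5 genes of the endoplasmic reticulum and mitochondria class, 4 lay above Control without overlap. Over all genes this share was 27.7%, and 40.6% of those with a mean TPM of 10 or more.

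Gene by gene, the chaperones of the endoplasmic reticulum gave no common direction. Their summed deposited TPM, with hsp90b1 and the DnaJ genes of this organelle included, did not overlap. The sums were 1677, 2240 and 2048 in 24h and 2291 and 2442 in Control. Of this hsp90b1, also counted with the Hsp90 genes below, held 727, 854 and 889 TPM in 24h and 1039 and 1269 TPM in Control. With hsp90b1 left out, the sums of the groups overlapped. hspa5, the BiP gene that rises in the unfolded protein response, had 707, 955 and 760 CPM in 24h and 908 and 814 CPM in Control (-0.09 ± 0.17 (SE), adjusted p = 0.72). Its values overlapped, and 24h replicate 2 was the highest library. hspa13, a microsomal Hsp70, had 18.0, 25.4 and 27.3 CPM in 24h and 12.3 and 16.3 CPM in Control; it missed the threshold in total reads (0.72 ± 0.23, adjusted p = 0.057) and passed in exon reads (0.73, adjusted p = 0.040), with DESeq2 on total reads (0.028), with no low-count filter (0.035) and without 24h replicate 1 (0.023).

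No Hsp90 gene within the naming rule passed edgeR's test, and all 3 tested had negative log2 fold changes, of -0.86 to -0.34. The mitochondrial Hsp90, trap1, falls outside that rule and passed as higher, as given below with the related lists. At an unadjusted p under 0.05, 2 of the 3 genes within the rule were lower and 0 higher, where 21% and 17.1% of all genes were. DESeq2 called 2 lower and limma-voom 1, where each called 15.5% of all genes lower. hsp90b1, the Hsp90 of the endoplasmic reticulum, had 1024, 1038 and 1061 CPM in 24h and 1287 and 1568 CPM in Control, and the groups did not overlap (-0.46 ± 0.14 (SE), adjusted p = 0.054). It was called lower by DESeq2 (adjusted p = 0.016), limma-voom (0.045), on log2(TPM + 1) (0.029) and log2(TPM + 0.1) (0.032), with no TMM (0.044) and without the 20 most abundant genes (0.049).

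The constant cytosolic Hsp90, hsp90ab1, had 4316, 3582 and 4170 CPM in 24h and 4957 and 5222 CPM in Control (-0.34 ± 0.15, adjusted p = 0.14), and 75.6% of its reads were unique. On both TPM scales it passed as lower (-0.38, adjusted p = 0.024 on log2(TPM + 1) and 0.027 on log2(TPM + 0.1)). hsp90aa1.2, an inducible form, had 135, 158 and 221 CPM in 24h and 418 and 202 CPM in Control (-0.86 ± 0.33, adjusted p = 0.11; DESeq2 adjusted p = 0.046). Here Control replicate 1 stood above all other libraries: the change was -0.24 without it and -1.28 (adjusted p = 0.025) without Control replicate 2. hsp90aa1.1, the striated muscle form in zebrafish, overlaps hsp90aa1.2 on the same strand, had at most 14 reads in a library and was not tested.

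Summed over the class, the deposited TPM of Hsp90 genes were 3186, 3245 and 3738 in 24h and 4385 and 4679 in Control, or 3390 ± 303 (SD, n = 3) and 4532 ± 208 (SD, n = 2). The 24h sum was 0.748 of the Control sum. The sum over all members, the Hsp90 genes included, also did not overlap between the groups. It was 12772, 14054 and 14015 TPM in 24h and 14421 and 14804 TPM in Control. With the Hsp90 genes left out, the sums of the groups overlapped. Hsp70 and Hsp110 genes held 5045, 5359 and 5072 TPM in 24h and 5352 and 5329 TPM in Control, and Cct genes 2170, 2395 and 2416 TPM in 24h and 2059 and 2200 TPM in Control, both with overlap. Just 4 genes, hspa8, hsp90ab1, hsp90b1 and hspa5, made up 66.0%, 64.4% and 64.2% of the chaperone TPM in 24h and 69.3% and 69.6% in Control. All other members summed to 4337, 5008 and 5024 TPM in 24h and 4429 and 4502 TPM in Control, with overlap.

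**Figure D2:**
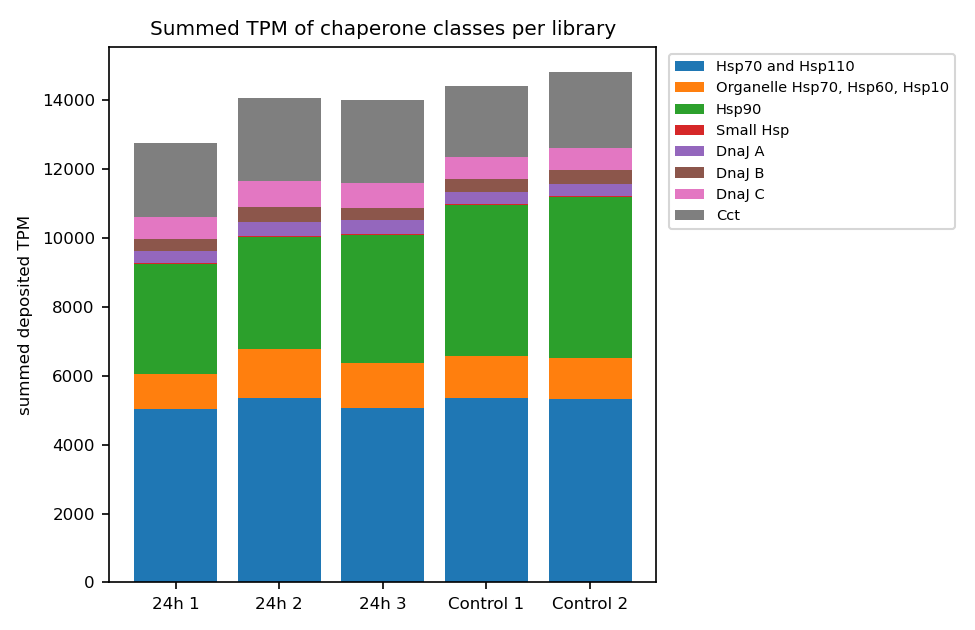
Deposited TPM summed over the chaperone genes of each class, stacked, for the 3 24h libraries on the left and the 2 Control libraries on the right. Hsp90 genes (green) sum to 3186 to 3738 TPM in 24h and to 4385 to 4679 TPM in Control, while Hsp70 and Hsp110 genes (blue) overlap between the groups.

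Small heat shock genes were scarce, and 5 of 10 were tested. hspb7, which in vertebrates is a heart and muscle form, had 0.88, 1.27 and 1.04 CPM in 24h and 3.48 and 4.75 CPM in Control. The groups were far apart relative to their spread, with a log2 fold change of -1.94 ± 0.31 (SE, adjusted p = 0.0047; 0.051 without Control replicate 2). Beside this, skeletal muscle markers summed to 43.7 to 55.2 CPM in 24h and 33.6 to 43.8 CPM in Control. Of the 22 in the tables, 9 were tested, 2 were higher and 1 was lower, and the parvalbumin gene pvalb2 was at 0 reads. The skeletal muscle sum includes atp2a1, whose model holds hsp70.1 to hsp70.3, so it is not independent of that locus. atp2a1 had 15.3, 11.6 and 13.4 CPM in 24h and 13.0 and 19.6 CPM in Control. Smooth muscle and mural markers (6 tested, 1 higher and 3 lower, none at 0) summed to 174 to 237 CPM in 24h and 133 to 137 CPM in Control. The median log2 fold change of those tested was -1.25, so this sum does not give the direction of the list. Over all genes tested, 9.43% were higher and 14.8% lower. The part of skeletal muscle, smooth muscle and mural cells in the hspb7 value was not tested.

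hspb1 (Hsp27), which binds and protects actin filaments, had 12.7, 5.76 and 11.8 CPM in 24h and 5.54 and 4.22 CPM in Control. The groups did not overlap, although 24h replicate 2 lay near the Control values, and it did not pass (1.04 ± 0.37 (SE), adjusted p = 0.084; called by DESeq2, adjusted p = 0.037, and without 24h replicate 2, 0.016). hspb8, a partner of the co-chaperone Bag3 in autophagy, had 5.18, 7.88 and 5.00 CPM in 24h and 9.87 and 9.36 CPM in Control (-0.67 ± 0.25, adjusted p = 0.094; 0.041 without 24h replicate 2). HSPB11, whose human namesake is a subunit of the ciliary transport complex, had the highest mean TPM of the class, and its 3.72, 3.85 and 3.18 CPM in 24h and 4.38 and 3.82 CPM in Control overlapped (-0.19, adjusted p = 0.59).

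Among the 5 type A DnaJ genes, the main cytosolic and mitochondrial partners of Hsp70, 0 passed edgeR's test, 0 had an unadjusted p under 0.05, and DESeq2 and limma-voom called 0. dnaja2, the most abundant, had 286, 257 and 245 CPM in 24h and 204 and 223 CPM in Control (0.30 ± 0.13 (SE), adjusted p = 0.13); no values overlapped. dnaja1 had 16.5, 33.4 and 19.5 CPM in 24h and 42.2 and 30.4 CPM in Control (-0.65 ± 0.31, adjusted p = 0.18), and without 24h replicate 2, the library that overlapped Control, it was -1.01 (adjusted p = 0.025). dnaja2l had 70.6, 77.4 and 72.5 CPM in 24h and 75.0 and 81.6 CPM in Control (-0.09, adjusted p = 0.61).

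Type B DnaJ genes gave the widest range of changes, from -6.15 to 0.63. DNAJB5 (1 to many), ENSDARG00000004187 at GRCz10 chr21:5004589-5009491, had 0, 4 and 0 reads in the 24h libraries and 106 and 72 reads in the Control libraries. In CPM this was 0, 0.17 and 0 in 24h and 5.60 and 4.75 in Control. The fitted log2 fold change was -6.15 ± 0.68 (SE, adjusted p = 0.00086). Its size depends on how near-zero counts are treated: without 24h replicate 2, which leaves 24h at 0 reads, it was -9.50, and on log2(TPM + 1) it was -2.92.

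Of its reads 65.9% were unique, and it overlaps si:dkey-121h17.6 on the opposite strand, a model with 13 reads in 24h and 91 in Control (-3.56, adjusted p = 0.0015). Whether reads were counted by strand is not given in the sources used here. Reads of models that overlap on opposite strands may therefore not have been kept apart. The separate gene dnajb5 had 1.71, 1.19 and 3.18 CPM in 24h and 2.53 and 2.97 CPM in Control, with overlap (-0.46, adjusted p = 0.47).

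dnajb4, a cytosolic partner of Hsp70, had 3.72, 4.11 and 3.31 CPM in 24h and 9.18 and 8.70 CPM in Control. Replicates were tight in both groups, and the log2 fold change was -1.26 ± 0.21 (SE, adjusted p = 0.0050; 0.053 without Control replicate 1). dnajb12a, anchored in the membrane of the endoplasmic reticulum where it takes part in clearing misfolded membrane proteins, had 43.9, 39.8 and 36.3 CPM in 24h and 24.9 and 27.0 CPM in Control. It rose by 0.63 ± 0.14 on the log2 scale (adjusted p = 0.017; 0.15 without Control replicate 1 and 0.080 without Control replicate 2). Its copy dnajb12b had 6.90, 6.27 and 6.43 CPM in 24h and 6.86 and 7.58 CPM in Control (-0.14, adjusted p = 0.62).

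Relative to dnajb12b, dnajb12a had 659%, 667% and 585% of the deposited TPM in 24h and 369% and 357% in Control. Here too the first gene was the called one, so a gap follows in part from that choice. dnajb11, a helper of BiP and the most abundant gene of type B, had 171, 187 and 142 CPM in 24h and 137 and 148 CPM in Control, with overlap (0.23, adjusted p = 0.31). The copies of dnajb1, the heat-inducible Hsp40, had negative changes that did not pass: dnajb1b had 21.6, 29.3 and 13.9 CPM in 24h and 42.1 and 28.7 CPM in Control (-0.71, adjusted p = 0.14). dnajb1a had 11.8, 18.4 and 16.1 CPM in 24h and 20.1 and 19.6 CPM in Control (-0.36, adjusted p = 0.24). dnajb12b and the dnajb1 copies were named after their values were seen.

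Type C, the most varied DnaJ group, had 30 tested genes, of which 1 was higher and 1 was lower. These were 3.33% each, against 9.43% higher and 14.8% lower of all genes. At an unadjusted p under 0.05, 7 were higher and 4 lower, where 17.1% and 21% of all genes were. DESeq2 called 3 higher (dnajc2, dnajc16l and dnajc18) and 1 lower, where it called 11.3% and 15.5% of all genes. The 28 that did not pass edgeR's test ranged from -0.89 (dnajc6) to 0.74 (dnajc18) on the log2 scale. dnajc2 (zuotin, Mpp11), which sits on the ribosome and helps new chains fold, had 31.4, 35.6 and 29.7 CPM in 24h and 18.5 and 17.7 CPM in Control. It rose by 0.83 ± 0.14 on the log2 scale (SE, adjusted p = 0.0062; 0.054 without Control replicate 1 and 0.057 without Control replicate 2), with every 24h library above both Control libraries. dnajc16l had 45.7, 49.1 and 47.8 CPM in 24h and 38.3 and 34.4 CPM in Control (0.39 ± 0.12, adjusted p = 0.056; DESeq2 adjusted p = 0.043). dnajc1, an endoplasmic reticulum partner of BiP and the most abundant of the group by TPM, had 85.8, 91.3 and 88.7 CPM in 24h and 71.5 and 71.1 CPM in Control (0.31 ± 0.11, adjusted p = 0.085).

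dnajc3b is a copy of the gene for p58IPK, a helper of BiP that restrains the kinase Perk. It had 103, 115 and 106 CPM in 24h and 184 and 160 CPM in Control, a log2 fold change of -0.67 ± 0.12 (SE, adjusted p = 0.0085; 0.097 without Control replicate 1). This call was lost on unique reads (-0.38, adjusted p = 0.062) and on the TPM scales, which use exon reads alone (-0.35, adjusted p = 0.12 on log2(TPM + 1), and -0.36, adjusted p = 0.13 on log2(TPM + 0.1)). Its copy dnajc3a, named after its values were seen, had 24.0, 38.5 and 27.5 CPM in 24h and 41.9 and 41.9 CPM in Control (-0.48, adjusted p = 0.13; 0.028 without 24h replicate 2).

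**Figure D3:**
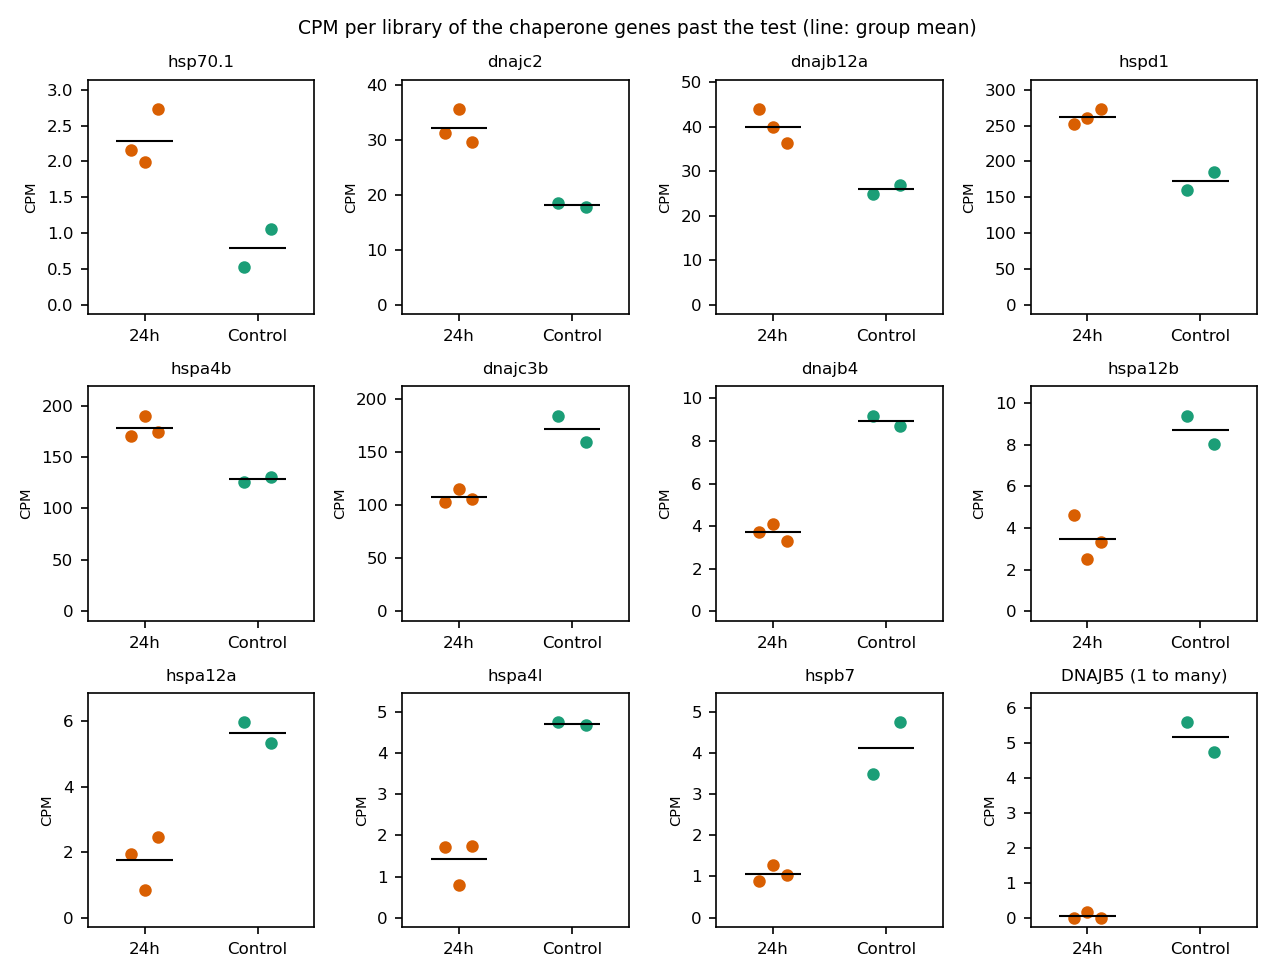
CPM in each library (points) and group mean (line) for the 12 chaperone genes that passed the test on total gene reads, with 24h on the left and Control on the right of each panel and an axis of its own per gene. In every panel the 24h and Control libraries do not overlap; for DNAJB5 (1 to many) 2 of the 3 24h libraries are at 0.

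Of the 7 genes of the cytosolic chaperonin 0 passed edgeR's test. At an unadjusted p under 0.05, 2 of them were higher (17.1% of all genes), and DESeq2 called 1 of them higher (11.3% of all genes). From the highest log2 fold change to the lowest they were cct4 at 0.37 (adjusted p = 0.064), cct5 at 0.29 (0.12), cct3 at 0.27 (0.15), cct7 at 0.22 (0.23), cct6a at 0.02 (0.91), cct8 at -0.09 (0.62) and CCT2 (1 to many) at -0.15 (0.57). cct6a turned slightly negative, to -0.01, on log2(TPM + 1). The model of CCT2 (1 to many) has only 307 exon bases and overlaps pacsin2 on the same strand. The first subunit, tcp1, falls outside the naming rule and was looked up afterwards (0.08, adjusted p = 0.67).

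cct4 had 362, 360 and 337 CPM in 24h and 265 and 282 CPM in Control, so that the groups did not overlap, and it was called higher by DESeq2 (adjusted p = 0.020) and with no TMM (0.0498). cct5 had 372, 357 and 335 CPM in 24h and 283 and 296 CPM in Control. cct3 had 292, 295 and 276 CPM in 24h and 230 and 248 CPM in Control. cct7, with 434, 412 and 409 CPM in 24h and 347 and 371 CPM in Control, was the last of the 4 subunits without overlap. Over all genes, 27.7% had 24h above Control without overlap, and 40.6% of those with a mean TPM of 10 or more. cct8 had 301, 264 and 293 CPM in 24h and 291 and 320 CPM in Control, and cct6a 538, 501 and 512 CPM in 24h and 497 and 521 CPM in Control, both with overlap.

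The barrel holds its subunits in equal number, and their TPM were of one order. Among tcp1 and the 6 subunits with full models, cct6a was the highest in every library. cct3 was the lowest in every library but 24h replicate 2, where cct8 was. The highest subunit had 1.95, 1.81 and 1.97 times the TPM of the lowest in 24h and 2.30 and 2.23 times in Control. cct4 stood at 136%, 155% and 130% of cct8 in 24h and at 103% and 99.7% in Control. This pair had the highest and the lowest log2 fold change among the full models, so a gap between the groups in their ratio follows from that choice.

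**Figure D4:**
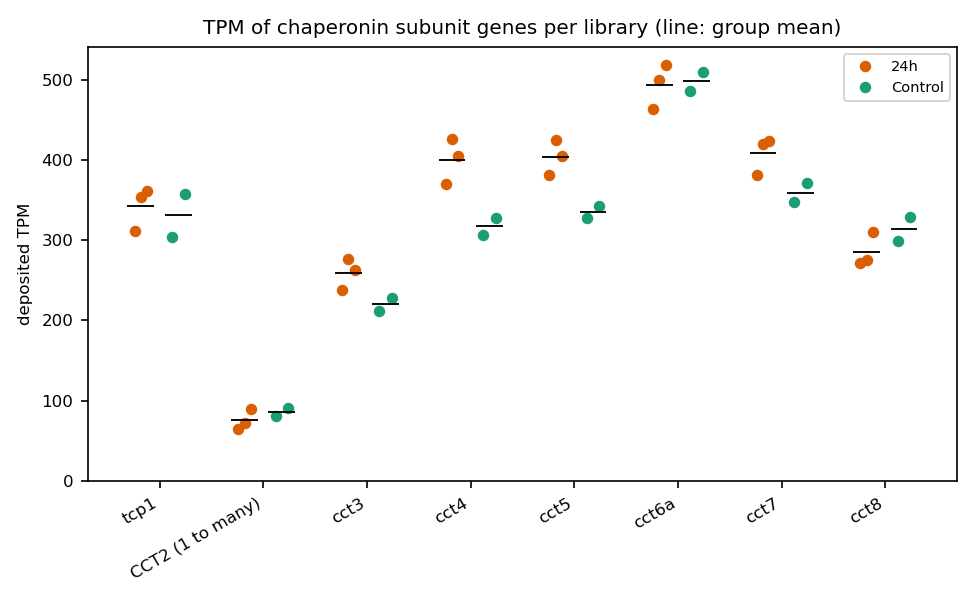
Deposited TPM of the chaperonin subunit genes in each library (points; 24h left in orange, Control right in green, lines mark group means). For cct3, cct4, cct5 and cct7 the 24h points lie above the Control points, while tcp1, cct6a and cct8 overlap and CCT2 (1 to many), a short model, is the lowest.

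Exon and intron reads of the same genes were set against each other, since intron reads can come from RNA that is not yet spliced. Where gene models overlap, they may also come from another gene. On exon reads 82 members were tested, 6 were higher and 6 lower (10.1% and 15.8% of all genes tested). On intron reads 58 were tested, of which 0 were higher and 3 lower (hspa12a, dnajc3b and dnajc8), where 2.16% of all genes were higher and 4.77% lower. At an unadjusted p under 0.05, 2 members were higher and 5 lower on intron reads, where 9.55% and 12.1% of all genes were. On the same reads DESeq2 called 0 members higher and 2 lower (2.37% and 4.54% of all genes), and limma-voom 0 higher and 3 lower (1.64% and 4.21%). Intron reads were few, with a median SE of 0.40 on the log2 scale against 0.17 on exon reads. Exon and intron changes had the same sign in 36 of the 58.

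The exon change minus the intron change passed the test with a positive sign in 3 of 58 members and with a negative sign in 0, where 0.245% and 0.925% of all genes tested did. At an unadjusted p under 0.05 there were 5 positive and 3 negative, where 3.62% and 8.53% of all genes were, and limma-voom called 2 positive and 0 negative (0.27% and 1.04% of all genes). The 3 genes were dnajc8, dnajc3b and cct5, and each shares its span with other gene models. Such overlap was present in 18 of the 58 tested members, and 0 of the 40 without overlap passed (3 had an unadjusted p under 0.05). So few of all genes passed that 0 of 40 does not set the members without overlap apart. The part of overlap in the 3 calls was not tested.

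dnajc8, a DnaJ protein of the spliceosome, had 43.3, 45.9 and 39.7 exon CPM in 24h and 34.7 and 32.8 exon CPM in Control (0.35, adjusted p = 0.087). Its intron reads went the other way, with 15.8, 20.7 and 21.5 CPM in 24h and 207 and 154 CPM in Control (-3.21 ± 0.28 (SE), adjusted p = 0.00034). The difference of the changes was 3.52 ± 0.29 (adjusted p = 0.00025) and was called in each fit that left out a library. COL14A1 (1 to many), a fibril-associated collagen gene that overlaps dnajc8 on the opposite strand, had 2.35, 3.47 and 3.57 CPM in 24h and 47.1 and 49.3 CPM in Control (-3.95, adjusted p = 3.1e-05). The part of its reads in the intron value of dnajc8 was not tested.

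dnajc3b spans a long stretch (GRCz10 chr7:20371259-20556843). It had 91.8, 97.4 and 88.1 exon CPM in 24h and 124 and 107 exon CPM in Control (-0.32, adjusted p = 0.10). Its intron reads were 262, 332 and 304 CPM in 24h and 927 and 842 CPM in Control (-1.56 ± 0.21 (SE), adjusted p = 0.0024), and the difference was 1.21 ± 0.23 (adjusted p = 0.030). It was not called without 24h replicate 2 (0.12), 24h replicate 3 (0.088), Control replicate 1 (0.35) or Control replicate 2 (0.27). Within the span lie chd3 on the same strand (-3.12, adjusted p = 0.00035) and tnfsf12 on the opposite strand (-2.51, adjusted p = 0.0025). Introns held 29.0% of the dnajc3b reads behind its total-read call, and the part of chd3 and tnfsf12 reads in the intron value was not tested.

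For cct5 the exon change was 0.31, and its intron reads were 30.9, 21.9 and 19.9 CPM in 24h and 46.7 and 51.8 CPM in Control (-1.02, adjusted p = 0.080). The difference was 1.31 ± 0.27 (SE, adjusted p = 0.044). It was not called by limma-voom (0.060) or without 24h replicate 2 (0.19), 24h replicate 3 (0.14), Control replicate 1 (0.37) or Control replicate 2 (0.30). The overlapping opposite-strand gene cmbl was lower by itself (-1.11, adjusted p = 0.0082). hspa12b had 58.8% of its reads in introns; its exon reads changed by -2.25 (adjusted p = 0.0011), its intron reads by -0.76 (0.29), and the difference did not pass (-1.46, adjusted p = 0.16). dnajb9b_1, a copy of an endoplasmic reticulum DnaJ gene, passed on exon reads (-0.51, adjusted p = 0.041) and not on total reads (-0.24, adjusted p = 0.30), of which 64.5% lay in introns.

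**Figure D5:**
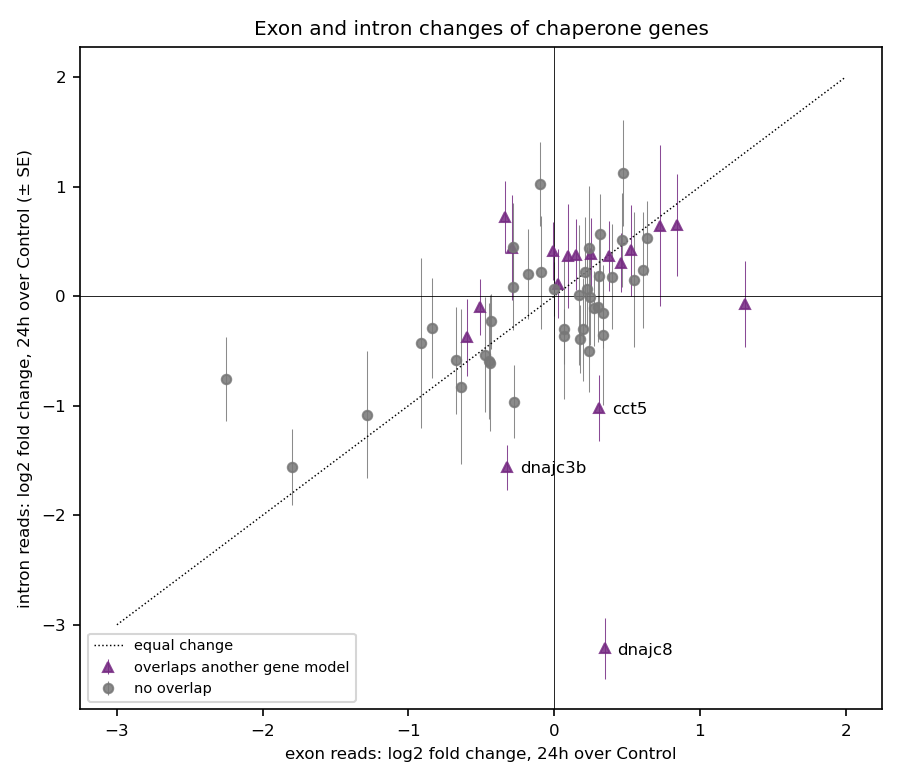
Log2 fold change of 24h over Control in exon reads (horizontal axis) against that in intron reads (vertical axis, bars ± SE) for the 58 chaperone genes tested on both, with triangles for genes that overlap another gene model and circles for the others. The named genes, dnajc8, dnajc3b and cct5, lie below the dotted line of equal change and are all triangles.

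Partners of the chaperones were counted from lists of related genes. Over 6 lists with 79 tested genes, 13 were higher and 5 lower, or 16.5% and 6.33%, against 9.43% and 14.8% of all genes tested. Those shares are the background of each list below. Among all genes with a mean TPM of 10 or more, 15.7% were higher and 11.4% lower. The lists were not split by level, and they were chosen with earlier results of these data known. Without Control replicate 1 or 2, 0 genes of the 6 lists were called in either direction. Of 4 heat shock factors and their binding proteins, 1 was higher. This was hsbp1b, a binding protein that holds Hsf1 back, with 108, 89.0 and 88.8 CPM in 24h and 71.4 and 65.5 CPM in Control (0.47, adjusted p = 0.045; 0.070 without 24h replicate 1 and 0.075 without 24h replicate 2). hsf1 itself had 16.4, 17.8 and 19.8 CPM in 24h and 13.4 and 16.7 CPM in Control (0.26, adjusted p = 0.31), with overlap. Of 25 co-chaperones of Hsp90 and Hsp70, 4 were higher and 1 lower.

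The lower one was fkbp4, an immunophilin that joins Hsp90 on steroid receptors, with 204, 152 and 230 CPM in 24h and 357 and 340 CPM in Control (-0.83 ± 0.18 (SE), adjusted p = 0.016; 0.11 without Control replicate 1 and 0.070 without Control replicate 2). bag5, a nucleotide exchange factor of Hsp70, had 21.4, 27.1 and 30.9 CPM in 24h and 13.7 and 15.4 CPM in Control (0.86 ± 0.19, adjusted p = 0.017; 0.14 without Control replicate 1, 0.064 without Control replicate 2, 0.052 without 24h replicate 2, 0.067 on log2(TPM + 1) and 0.071 on log2(TPM + 0.1)). The other higher ones, named after their values were seen, were bag4 (0.62), chordc1b (0.47) and ptges3b (0.40).

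Prefoldin, which passes actin and tubulin chains to the Cct barrel, headed a list of 10 prefoldin subunits and chaperonin helpers. Of these, 4 were higher (40%, against 9.43% of all genes and 15.7% of those with a mean TPM of 10 or more). pfdn1 had 42.6, 42.3 and 34.7 CPM in 24h and 24.3 and 22.7 CPM in Control (0.76, adjusted p = 0.0095), and pfdn6 39.8, 39.7 and 33.4 CPM in 24h and 25.6 and 23.9 CPM in Control (0.60, adjusted p = 0.020; 0.066 without 24h replicate 2). pfdn2 (0.48) and pfdn4 (0.46), named after their values were seen, passed as well.

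Of 8 helpers of mitochondrial Hsp70 and Hsp60, 2 were higher. trap1, the mitochondrial Hsp90, had 41.5, 42.9 and 42.8 CPM in 24h and 30.1 and 30.6 CPM in Control (0.48, adjusted p = 0.024). clpp, a protease of the matrix, had 25.6, 26.1 and 19.4 CPM in 24h and 14.1 and 16.2 CPM in Control (0.65, adjusted p = 0.039). Both calls were lost without either Control library and without 24h replicate 2 (adjusted p = 0.069 for trap1 and 0.11 for clpp). That of trap1 was also lost on log2(TPM + 1) (0.0805) and log2(TPM + 0.1) (0.083), and that of clpp without 24h replicate 1 (0.083) and on log2(TPM + 0.1) (0.051).

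Chaperones and foldases of the endoplasmic reticulum gave 2 higher and 3 lower of 20 (10% and 15%, against 9.43% and 14.8% of all genes). serpinh1b encodes Hsp47, the chaperone of collagen, and had 321, 391 and 937 CPM in 24h and 2989 and 2847 CPM in Control (-2.41 ± 0.45 (SE), adjusted p = 0.012; 0.074 without Control replicate 1, 0.062 without Control replicate 2 and 0.061 with no low-count filter). Its 24h replicate 3 stood above the other 24h libraries and far under Control, and its copy serpinh1a was also lower (-1.27). Fibroblast markers moved the same way, with 7 of 9 tested lower, 0 higher and none at 0 reads, and a summed level of 3505 to 4590 CPM in 24h and 14984 to 15136 CPM in Control. Their part in the serpinh1b value was not tested.

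ero1a, the oxidase that renews disulfide formation, had 10.3, 6.99 and 11.9 CPM in 24h and 3.38 and 3.49 CPM in Control (1.5, adjusted p = 0.0092). The calcium-binding chaperone gene calr was lower (-0.66) and sec63, a DnaJ-type subunit of the translocon, higher (0.51). In the unfolded protein response list 1 of 12 was lower, against 14.8% of all genes. That gene was ddit3 (Chop), with 12.8, 9.40 and 17.7 CPM in 24h and 21.6 and 28.4 CPM in Control (-0.92, adjusted p = 0.047; 0.11 without 24h replicate 1, 0.091 without 24h replicate 2 and 0.051 on log2(TPM + 0.1)). eif2ak3, which encodes Perk, had 17.7, 36.8 and 27.4 CPM in 24h and 50.5 and 35.4 CPM in Control (-0.65, adjusted p = 0.16).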

How the data were processed

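Per the labels' protocols, RNA from regenerated caudal fin tissue was extracted with phenol and a stranded mRNA kit was used for the libraries. Per the file headers, the authors deposited for each library whole-number counts of total, unique, exon and intron reads per gene and TPM values; the deposited TPM equalled exon reads per exon length scaled to a sum of 1000000. The genome build was GRCz10, per the submitters' processing notes; aligner, counter and any use of strand in counting: not given in the sources used here.

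From the counts, all genes were tested with edgeR 4.0.16 in R 4.3.3 (TMM, filterByExpr, robust quasi-likelihood F test, Benjamini-Hochberg adjustment, threshold 0.05), on total, exon and intron reads, the common biological coefficient of variation being 20.2%, 19.7% and 28.7%. The SE is approximate, the absolute log2 fold change over the root of F. Exon against intron change was the interaction of read kind and group, with the library as a block and each kind scaled within itself. Alternatives were DESeq2 1.42.0, limma-voom (limma 3.58.1), limma on log2(TPM + 1) and log2(TPM + 0.1) for genes of at least 0.5 TPM in 2 libraries, other scalings and filters, unique reads, no 20 most abundant genes, each library left out, and the hsp70.1 to hsp70.3 reads summed, which was added after the data were seen. The code was checked on simulated data.

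The members and lists were chosen with earlier results of these data known. Named are hsp70.1, the 3 members of each class with the smallest p and the 1 with the highest mean TPM, all Cct subunits, and 2 genes of each related list with the smallest p; further names were chosen after their values were seen, including every called member not covered by this rule and further list genes. Gene sequences were not used here. Replicate numbers are in accession order and pair nothing; PCR copies were not marked.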

Additional observations from a re-analysis of the deposited data

How the results depend on the processing

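No paired analysis was possible because no label numbers the replicates. All 12 members called on total reads stayed called with DESeq2, limma-voom, DESeq2's size factors, no TMM, no low-count filter, a CPM filter and without the 20 most abundant genes; 9 stayed on log2(TPM + 0.1), 10 on log2(TPM + 1) and 10 on unique reads, where hsp70.1 failed the filter. The scalings moved the median of all genes by less than 0.1 (log2). DESeq2 called 10 members higher on total reads, against 5, and 10 on exon reads, against 6. With each library left out, members called higher numbered 0 to 6 and lower 2 to 10 on total reads, higher 1 to 7 and lower 3 to 9 on exon reads, and lower 1 to 5 on intron reads; the exon minus intron change gave 1 to 3 positive and 0 to 2 negative. Related genes called higher numbered 6 on log2(TPM + 0.1) and 7 on log2(TPM + 1), against 13, and 0 to 14 with a library left out, and lower 0 to 7, against 5. The cause of these shifts was not tested. A fit that leaves out a library also has fewer samples, and the part of this was not tested either. Signs turned in a few genes: cct6a was -0.014 on log2(TPM + 0.1) and on log2(TPM + 1) and -0.013 to 0.069 with a library left out, hspa8 -0.094 to 0.050, hsp70.3 -0.22 to 1.91, hspa4a -0.0098 to 0.22 and tcp1 -0.032 to 0.22. dnajc8 turned to 0.30 on both TPM scales, which leave out its intron reads, and to 0.34 on unique reads. Low counts limit the small heat shock genes, hsp70.1 and the intron tests: 10 members on total reads and 34 on intron reads could not be tested.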
